A study of Mus musculus with 12 samples.

Results

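Genes of the extracellular matrix, the integrins that bind it and the proteases that cut it were examined in 4 mouse embryonic stem (ES) cell lines that differ in Rex1, also called Zfp42, a zinc finger gene expressed in undifferentiated ES cells. Members were taken from the gene names printed on the array: collagens, laminin chains, nidogens, integrin chains, Mmp, Timp, thrombospondin, Adam, lysyl oxidase, fibulin and fibrillin names, together with Fn1, Sparc, Spp1, Tnc and Bgn. This gave 101 probes with 75 names, out of 20280 gene probes with 7181 names. Of these, 96 probes belonged to 72 genes of the families. The other 5 probes carried 3 names that matched by their letters alone: Col4a3bp, a lipid transfer protein; Itgb4bp, a translation factor; and Col9a3, whose probes are described in the files as an opioid growth factor receptor. They are included in the counts over 101 probes and are not described further. No probe carried the names Fn1, Sparc, Col1a1, Col3a1 or Lamb1.

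The lines were EB5 (wild-type), RKPG9 (Rex1+/-), HP3 (Rex1-/-) and HP4 (Rex1-/-), each 1 clonal line, and the knockout lines were derived from RKPG9 by further drug selection or a second targeting step. All are derivatives of E14tg2a and were grown without feeder cells in medium with serum and leukemia inhibitory factor (LIF), according to the study's methods. RNA of each line was labeled with Cy3 and hybridized on 3 two-color arrays against Cy5-labeled Universal Mouse Reference RNA, which pools RNA of several mouse cell lines. A level in the text is the log2 ratio of line over reference, so that 0 means equal signal, and a difference between lines is a difference of these log2 ratios. The sources used here do not say if the 3 arrays of each line hold separate cultures. The p-values therefore reflect array-to-array spread, possibly technical.

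The scanner images of EB5 were read in a separate software session with a global background adjustment switched on, whereas those of the other 3 lines shared a session with it off. Differences from EB5 and the reading session cannot be told apart, while RKPG9, HP3 and HP4 can be compared within 1 session. The share of all probes well above background in Cy3 was 92.2% to 94.5% on the EB5 arrays, 89.3% to 89.9% on RKPG9, 87.1% to 89.4% on HP3 and 85.3% to 86.1% on HP4, and 90 to 96, 84 to 90, 82 to 85 and 80 to 81 of the 101 member probes, respectively, passed the same mark. The lowest correlation between any pair of arrays over all probes was 0.929. The Zfp42 probe A_65_P04151 read 5.87 to 5.95 in EB5, 5.94 to 6.02 in RKPG9, 5.77 to 6.03 in HP3 and 5.22 to 5.52 in HP4. The position of this probe relative to the deleted part is not given, so it does not check the genotypes.

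Basement membranes are sheets built from laminin trimers and a network of type IV collagen, joined by nidogens and perlecan. Interstitial matrix is made of fibrillar collagens that lysyl oxidases crosslink, with fibronectin, tenascin, fibrillins and small proteoglycans attached. Integrins are receptors of 1 alpha and 1 beta chain that couple these proteins to the cytoskeleton, and the laminin to integrin contact is used by ES cells to attach and by the early embryo to organize its first epithelium. Matrix metalloproteinases (Mmp), Adam and Adamts enzymes cut matrix and shed surface proteins, and Timp proteins inhibit them.

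Most members were lower in the ES cell lines than in the reference pool. Of the 101 member probes, 69 (68.3%) lay below the reference in all 4 lines, against 42.8% of all probes, and 16 lay above it in all 4. The highest levels belonged to basement membrane genes. Nidogen-2 (Nid2), which joins laminin to collagen IV, averaged 2.54, 2.32, 2.50 and 2.27 in EB5, RKPG9, HP3 and HP4 at probe A_65_P07859. At its probe A_65_P18553 the means were 2.12, 2.03, 2.25 and 1.74. Col18a1, the core protein of a basement membrane proteoglycan, averaged 2.08, 2.05, 2.19 and 2.23 at probe A_65_P14425. At the other end, the small proteoglycan biglycan (Bgn) averaged -4.19, -4.56, -4.41 and -4.02. The collagen crosslinking enzyme lysyl oxidase (Lox) averaged -3.61, -3.94, -3.66 and -3.29 at probe A_65_P02346. The reference signal of osteopontin (Spp1) was saturated, so its place in this order cannot be read. These values rank each gene against the reference pool, not against other genes, because probes differ in brightness. Of the members, 71 were well above background on all 12 arrays, 2 on none.

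**Figure D1:**
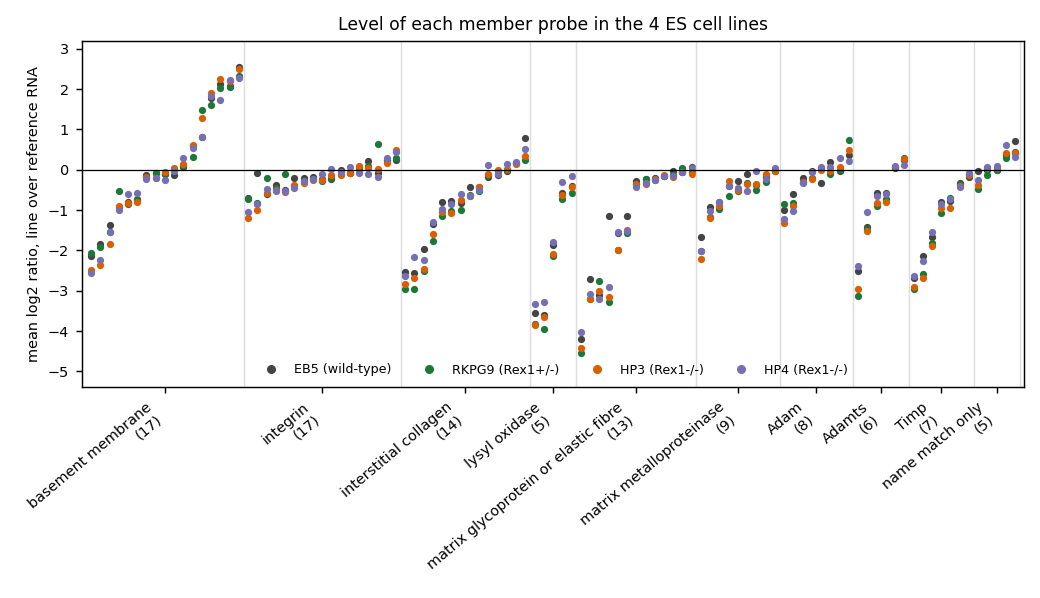
Mean log2 ratio of line over reference (vertical axis) for each of the 101 member probes, grouped by role along the horizontal axis and sorted within a role, with 1 colored point per line. Most points lie below 0, and basement membrane genes reach the highest levels.

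Against EB5, more members were lower than higher in HP3 and RKPG9. In HP3, 6 member probes were higher and 31 lower at an adjusted p under 0.05 (limma, Benjamini-Hochberg over all probes), and 11.4% of all probes were higher and 19.1% lower. Among probes well above background on at least 3 arrays these were 5 and 30, against 12.2% and 20.1% of all such probes. In RKPG9, 8 were higher and 35 lower, against 12.5% and 21.6% of all probes. In HP4, 18 were higher and 27 lower, close to the 18.4% and 26.4% of all probes. The median difference over the members was -0.08 in HP3, -0.09 in RKPG9 and -0.04 in HP4, with -0.02 over all probes in each case. Only 1 member probe, Thbs1 A_65_P06491, changed more than 2-fold, and it was lower in all 3 lines than in EB5, where 0.183%, 0.287% and 0.371% of all probes were lower by that much in HP3, HP4 and RKPG9 and 0.0346%, 0.00494% and 0.153% were higher. This count depended on the processing: with the scanner's processed signals 5, 12 and 6 members were lower past 2-fold in HP3, HP4 and RKPG9, and 3, 11 and 4 were in the authors' value table. The shares of all probes past 2-fold under these settings are not available here. These counts therefore cannot be set against the shares above. With the Cy3 channel alone the HP3 count at an adjusted p under 0.05 became 4 higher and 16 lower, against 11.2% and 15.5% of all probes. The RKPG9 count became 13 higher and 16 lower in that setting, against 10.6% and 15.6%. In both lines the lower members were then close to the share of all probes. The HP4 count became 31 higher and 12 lower without background subtraction, against 16.8% and 20.6% of all probes. With the scanner's processed signals the HP4 count was 15 higher and 47 lower, against 22.5% and 33.7%. In the authors' value table it was 14 and 46, against 23.3% and 32.5%.

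Within the shared reading session, HP3 differed from RKPG9 at 9 member probes that were higher and 15 that were lower, against 12.6% and 10.1% of all probes. HP4 had 35 higher and 17 lower than RKPG9, against 20.9% and 19.1% of all probes, and 32 higher and 10 lower than HP3, against 13.7% and 14.7%. No member passed 2-fold in these comparisons, where 0.148% of all probes were higher and 0.133% lower in HP3 against RKPG9, 0.138% and 0.242% in HP4 against RKPG9, and 0% and 0.0247% in HP4 against HP3. With the processed signals 4 were lower past 2-fold in HP4 against RKPG9 and 2 in HP4 against HP3, and 5 and 3 were in the authors' table. For these too, no matching share of all probes is available. The median differences over the members were 0.00, 0.07 and 0.08, with 0.00 (HP3), 0.01 and 0.00 over all probes. These comparisons share arrays, so their counts are not independent. The directions for HP4 depended on the processing. With the scanner's processed signals and with the authors' table, HP4 had 18 higher and 31 lower than RKPG9, and 13 higher and 15 lower than HP3. The shares of all probes were 20.1% and 26.7%, and 12.7% and 18.8%, with the processed signals. In the table they were 19.7% and 26%, and 12.4% and 18.6%. With the Cy3 channel alone the member counts were 11 and 18, and 3 and 2, against 13.9% and 12.3%, and 4.64% and 4.71%. Without background subtraction HP4 had 46 higher and 11 lower than RKPG9, against 23.4% and 20.8%. Median centring gave 39 higher and 27 lower against HP3, against 34.1% and 36.4% of all probes. For HP3 against RKPG9 the split became 2 higher and 14 lower with median centring (5.87% and 9.25% of all probes). Without background subtraction it was 11 higher and 12 lower (12.5% and 11.3%).

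**Figure D2:**
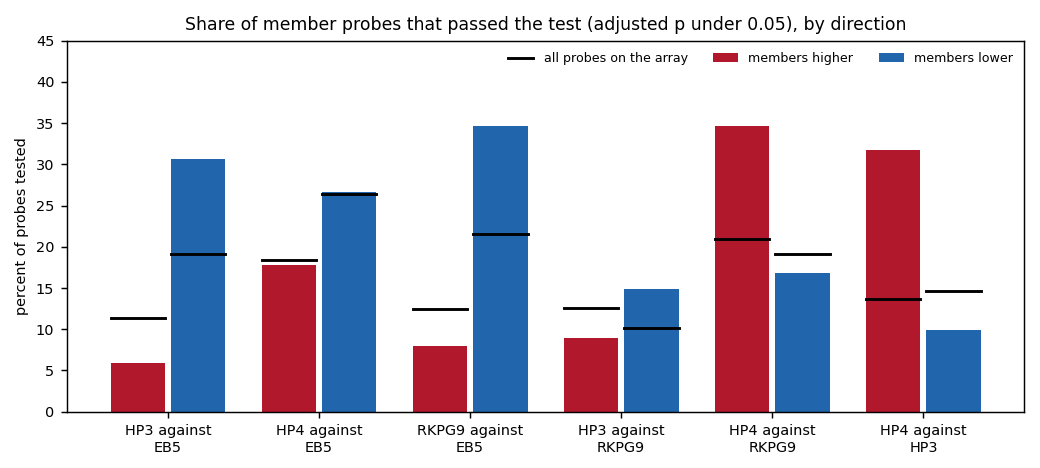
Percent of the 101 member probes that were higher (red) or lower (blue) at an adjusted p under 0.05 in each of the 6 comparisons, with black lines for the percent of all probes in the same direction. Lower members exceed the line for all probes in HP3 and RKPG9 against EB5, and higher members exceed it in HP4 against RKPG9 and against HP3.

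**Figure D3:**
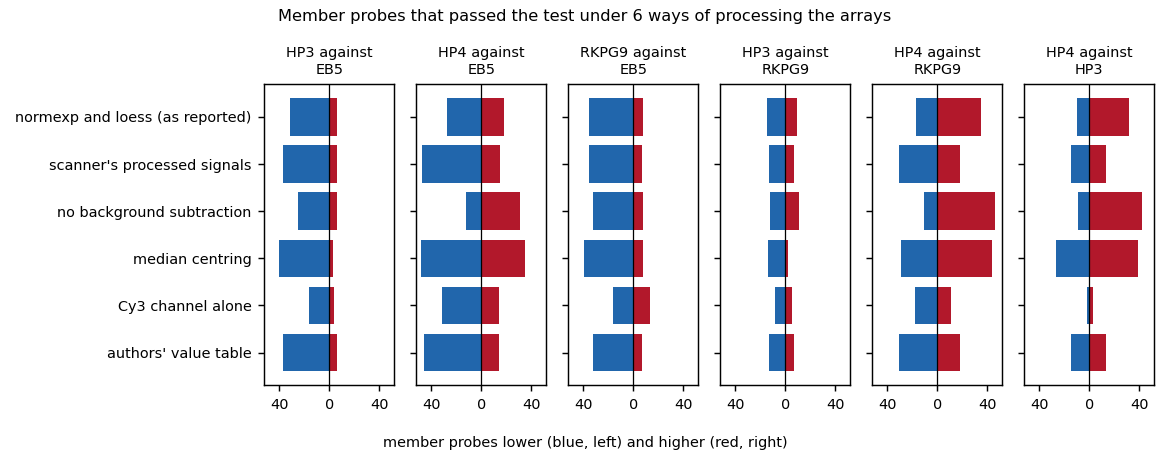
Number of member probes lower (blue, to the left) and higher (red, to the right) under 6 ways of processing the arrays, for each comparison. The blue bar stays the longer one for HP3 against EB5 and RKPG9 against EB5, whereas the longer side changes with the processing where HP4 is compared. The shares of all probes are not drawn.

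The collagen IV chains, the laminin beta-2 chain and integrin beta-1 were lower in HP3 than in both EB5 and RKPG9. Col4a1 and Col4a2 encode the paired chains of the common collagen IV trimer, Lamb2 a chain of laminins at mature basement membranes, and Itgb1 the beta chain shared by most laminin and collagen receptors. The genes Col4a1 and Col4a2 lie on opposite strands, with RefSeq start sites 21 bases apart on GRCm38.p6, at 11312826 (minus) and 11312805 (plus). The transcripts thus overlap at their starts, and the window of each lies on the transcribed side of the other. The 250 bases before the start of each of these 4 genes are shown 5′ to 3′ on the gene's strand. They were chosen because all 4 genes were lower in HP3 than in EB5 and RKPG9, and because Col4a1 and Col4a2 start next to each other. Capitals mark matches on either strand to CCAAT (the box bound by NF-Y) and GGGCGG (a GC box of the Sp1 type). The motif CCATNTT, the core bound by Yy1, the closest relative of Rex1, was searched on both strands and these letters are not in the 4 windows.
Col4a1 (chr8:11312827-11313076, minus strand): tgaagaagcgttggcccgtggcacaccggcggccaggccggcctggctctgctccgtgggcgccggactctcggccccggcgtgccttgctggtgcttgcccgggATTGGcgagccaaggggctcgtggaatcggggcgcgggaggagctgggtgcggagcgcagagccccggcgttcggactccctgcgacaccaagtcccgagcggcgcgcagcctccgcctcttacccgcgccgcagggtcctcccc
Col4a2 (chr8:11312555-11312804, plus strand): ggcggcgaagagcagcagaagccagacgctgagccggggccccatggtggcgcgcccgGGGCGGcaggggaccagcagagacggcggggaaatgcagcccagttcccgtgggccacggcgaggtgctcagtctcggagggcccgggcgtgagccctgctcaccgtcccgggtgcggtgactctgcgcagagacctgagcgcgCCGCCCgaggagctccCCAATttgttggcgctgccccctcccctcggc
Lamb2 (chr9:108479612-108479861, plus strand): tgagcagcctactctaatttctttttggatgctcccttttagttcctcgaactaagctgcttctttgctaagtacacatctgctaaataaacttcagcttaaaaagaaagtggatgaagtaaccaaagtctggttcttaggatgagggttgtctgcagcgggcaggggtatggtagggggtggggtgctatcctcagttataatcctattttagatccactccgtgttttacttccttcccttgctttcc
Itgb1 (chr8:128685404-128685653, plus strand): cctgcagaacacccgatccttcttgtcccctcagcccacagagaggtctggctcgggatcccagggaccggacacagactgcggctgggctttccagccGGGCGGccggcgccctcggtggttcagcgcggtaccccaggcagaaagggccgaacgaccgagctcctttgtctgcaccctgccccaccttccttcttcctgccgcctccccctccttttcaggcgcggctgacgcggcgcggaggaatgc

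The Col4a1 window holds CCAAT on its minus strand, 145 to 141 bases before the start. The Col4a2 window holds CCAAT 32 to 28 bases before the start and GGGCGG at 192 to 187 and, on the minus strand, at 48 to 43 bases before it. The Itgb1 window holds GGGCGG 151 to 146 bases before the start, and the Lamb2 window holds neither. Of 32851 RefSeq promoter windows of 250 bases, 33.8% hold CCAAT, 32.7% GGGCGG and 12.4% CCATNTT. Of the 57 windows found for 49 of the 72 member genes, 29.8%, 61.4% and 10.5% hold them. A match describes the letters only.

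Col4a2 showed the larger fall of the collagen IV pair. Its level was -1.84, -1.79 and -1.90 on the EB5 arrays and -1.89, -1.90 and -1.95 on the RKPG9 arrays. HP3 gave -2.32, -2.42 and -2.37, and HP4 gave -2.14, -2.28 and -2.30. All 6 knockout arrays lay below all 6 arrays of the other lines. HP3 differed by -0.53 (SE 0.05, adjusted p = 1.1e-05) from EB5 and by -0.46 (SE 0.05, adjusted p = 2.5e-05) from RKPG9. HP4 differed by -0.40 and -0.33 from EB5 and RKPG9. Its partner Col4a1 stood at -1.38, -1.29 and -1.42 on EB5 arrays, -1.52, -1.66 and -1.45 on RKPG9, -1.84, -1.81 and -1.88 on HP3 and -1.48, -1.63 and -1.54 on HP4. The HP3 arrays were the lowest and those of HP4 overlapped those of RKPG9. HP3 differed by -0.48 (SE 0.06, adjusted p = 9.2e-05) from EB5 and by -0.30 (SE 0.06, adjusted p = 0.0023) from RKPG9, while HP4 differed from RKPG9 by -0.0047 (adjusted p = 0.96) and from EB5 by -0.18 (adjusted p = 0.023), a call that was lost without EB5 replicate 2 (adjusted p = 0.086) or HP4 replicate 2 (adjusted p = 0.09).

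Lamb2 was lower in both knockout lines. Its level was -2.20, -2.13 and -2.10 on EB5 arrays, -2.03, -2.08 and -2.10 on RKPG9, -2.45, -2.51 and -2.47 on HP3 and -2.47, -2.67 and -2.58 on HP4, with no overlap between the knockout arrays and the others. The difference of HP3 was -0.33 (SE 0.05, adjusted p = 3.8e-04) from EB5 and -0.41 (SE 0.05, adjusted p = 8.0e-05) from RKPG9. HP4 differed by -0.43 and -0.50. From the Cy3 channel alone, HP3 against EB5 was 0.04. Itgb1 was also lowest on the knockout arrays, at -0.66, -0.69 and -0.73 on EB5 arrays, -0.69, -0.75 and -0.77 on RKPG9, -1.19, -1.27 and -1.15 on HP3 and -0.94, -1.13 and -1.09 on HP4. Its HP3 difference was -0.51 (SE 0.05, adjusted p = 2.1e-05) from EB5 and -0.47 (SE 0.05, adjusted p = 3.1e-05) from RKPG9, and its HP4 difference -0.36 and -0.32. The HP4 part of this pattern rested on background subtraction: without it, HP4 against RKPG9 was 0.02 for Col4a2, 0.01 for Lamb2 and -0.02 for Itgb1, none past the threshold. In HP3 against RKPG9, Col4a2, Lamb2 and Itgb1 stayed lower under that setting and Col4a1 did not (-0.01, adjusted p = 0.85).

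**Figure D4:**
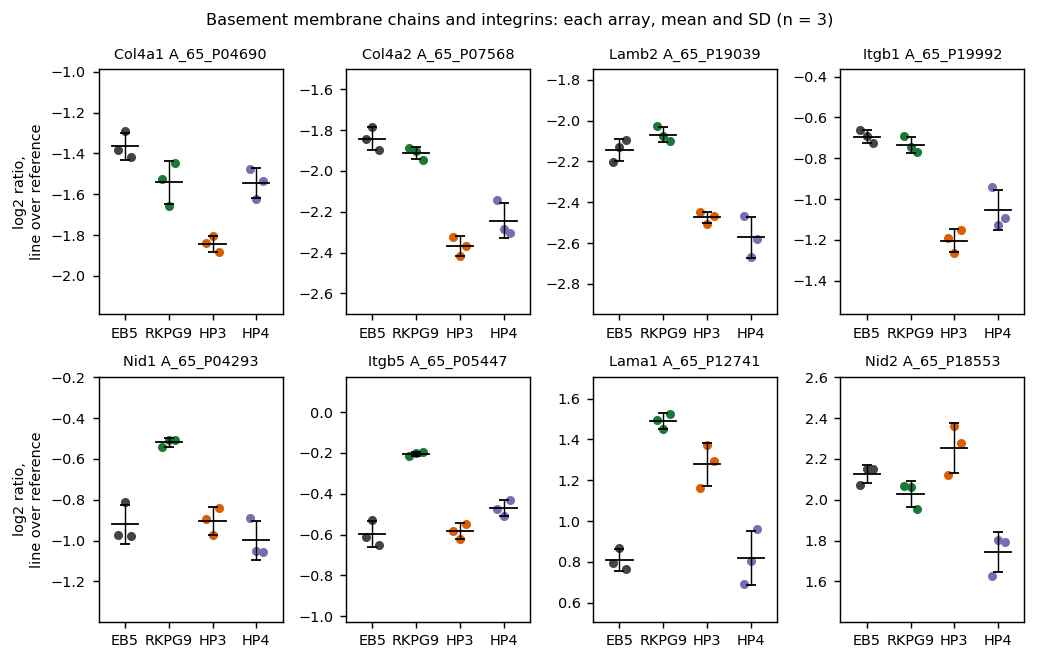
Log2 ratio of line over reference for 8 probes of basement membrane genes and integrins, with 1 point per array, the line mean and bars of 1 SD (n = 3). Col4a2, Lamb2 and Itgb1 are lower in HP3 and HP4 than in EB5 and RKPG9, and Nid1 and Itgb5 are highest in RKPG9.

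Another group was higher in RKPG9 than in the 3 other lines. Nidogen-1 (Nid1), the linker of laminin and collagen IV, was -0.54, -0.51 and -0.51 on RKPG9, against -0.97, -0.81 and -0.98 on EB5 arrays, -0.90, -0.97 and -0.84 on HP3 and -0.89, -1.05 and -1.06 on HP4. RKPG9 did not overlap any of them. It differed from EB5 by 0.40 (SE 0.06, adjusted p = 2.2e-04), HP3 from it by -0.38 (SE 0.06, adjusted p = 4.3e-04) and HP4 by -0.48 (SE 0.06, adjusted p = 5.2e-05), whereas HP3 and HP4 against EB5 gave 0.02 (adjusted p = 0.86) and -0.08 (adjusted p = 0.29). Integrin beta-5 (Itgb5), a partner of the alpha-v chain that binds vitronectin, was -0.61, -0.53 and -0.65 on EB5 arrays, -0.22, -0.20 and -0.20 on RKPG9, -0.58, -0.62 and -0.55 on HP3 and -0.47, -0.51 and -0.43 on HP4. RKPG9 exceeded EB5 by 0.39, and HP3 and HP4 differed from RKPG9 by -0.38 and -0.27. Integrin beta-7 (Itgb7), known from lymphocytes that home to the gut, gave 0.39 in RKPG9 against EB5, -0.44 in HP3 against RKPG9 and -0.41 in HP4 against RKPG9. It was chosen after its values were seen. In each case HP3 and EB5 did not differ past the threshold, at 0.01 (adjusted p = 0.82) for Itgb5 and -0.06 (adjusted p = 0.29) for Itgb7.

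The laminin alpha-1 chain (Lama1), the alpha chain of the first embryonic laminin, was above the reference in every line. It read 0.80, 0.87 and 0.77 on EB5 arrays, 1.49, 1.45 and 1.53 on RKPG9, 1.16, 1.37 and 1.30 on HP3 and 0.69, 0.81 and 0.96 on HP4. EB5 and HP4 overlapped at the low end, HP3 lay between and RKPG9 was highest. The difference from EB5 was 0.68 (SE 0.07, adjusted p = 1.2e-05) in RKPG9, 0.47 (SE 0.07, adjusted p = 3.4e-04) in HP3 and 0.01 (adjusted p = 0.93) in HP4, and HP4 gave -0.67 against RKPG9 and -0.46 against HP3. HP3 against RKPG9 was -0.21 (adjusted p = 0.042) and did not pass in 8 of the 12 fits that left out an array. At probe A_65_P18553, Nid2 was lowest in HP4, where it read 1.63, 1.80 and 1.79, against 2.07, 2.15 and 2.15 on EB5 arrays, 2.07, 2.06 and 1.96 on RKPG9 and 2.12, 2.36 and 2.28 on HP3. HP4 differed by -0.38 from EB5, -0.29 from RKPG9 and -0.51 from HP3, while with Cy3 alone the differences from EB5 and RKPG9 turned to 0.18 and 0.19. At the other probe, A_65_P07859, HP4 read 2.33, 2.26 and 2.23 and overlapped RKPG9, at 2.38, 2.36 and 2.24. There HP4 gave -0.23 against HP3, -0.27 against EB5 and -0.05 (adjusted p = 0.4) against RKPG9. HP3 against EB5 was 0.13 (adjusted p = 0.16) at the first probe.

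Other basement membrane probes moved less. Col18a1, whose end fragment is endostatin, rose in HP3 against EB5 by 0.13 at probe A_65_P12582 and 0.11 at A_65_P14425, and against RKPG9 by 0.28 at the first. The laminin alpha-5 chain (Lama5), which ES cells deposit with gamma-1, rose in HP3 against RKPG9 by 0.30 at probe A_65_P09347, while probe A_65_P04609 gave 0.03 (adjusted p = 0.78). Of the 17 basement membrane probes, 3 were higher and 3 lower in HP3 than in EB5, 4 and 6 in HP4, and 2 and 4 in RKPG9. The shares of all probes were 11.4% and 19.1% for HP3, 18.4% and 26.4% for HP4, and 12.5% and 21.6% for RKPG9. Against RKPG9, 5 were higher and 5 lower in HP3, and 5 and 6 in HP4, with 12.6% and 10.1%, and 20.9% and 19.1%, of all probes. Further chains of the same structures stood on the array under other names and were not members. A probe described as laminin beta-1 (A_65_P12534) was -0.49 in RKPG9 against EB5, 0.59 in HP3 against RKPG9 and 0.84 in HP4 against RKPG9, with the same directions but smaller differences of -0.12 (adjusted p = 0.11), 0.21 (adjusted p = 0.011) and 0.15 (adjusted p = 0.041) at probe A_65_P09952. At A_65_P03313 the 3 comparisons did not pass, with 0.12, 0.10 and 0.12, and A_65_P15896 was not well above background in RKPG9, HP3 or HP4. A fibronectin probe (A_65_P02592) was 0.32 in HP3 against EB5, 0.30 in HP3 against RKPG9 and -0.38 in HP4 against HP3. Probe A_65_P16612, with 1 usable EB5 array, gave 0.07 (adjusted p = 0.39), 0.19 (adjusted p = 0.012) and -0.20 (adjusted p = 0.0086). The fibronectin probe A_65_P01794 gave -0.0034 (adjusted p = 0.98) in HP3 against EB5 and was not well above background in RKPG9, HP3 or HP4. SPARC, a collagen-binding glycoprotein of the basement membrane, read -2.22, -2.21 and -2.25 on EB5 arrays and -3.26, -3.30 and -3.28 on RKPG9. Its difference from EB5 was -0.89 in HP3, -0.83 in HP4 and -1.05 in RKPG9. Laminin beta-1, fibronectin and SPARC were chosen as chains missing from the member names, and their values were known by then.

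Among the integrins, the alpha-3 chain (Itga3), which with beta-1 binds laminins of the alpha-5 type, gave probes that disagreed. At A_65_P05207 it read -0.08, -0.04 and -0.10 on EB5 arrays, -0.80, -0.80 and -0.84 on RKPG9, -1.09, -0.90 and -0.98 on HP3 and -0.78, -0.89 and -0.90 on HP4. EB5 lay apart from the 3 other lines, with differences of -0.92 (SE 0.05, adjusted p = 2.0e-07) in HP3, -0.78 in HP4 and -0.74 in RKPG9. At A_65_P05502 the same comparisons gave -0.08 (adjusted p = 0.21), 0.04 (adjusted p = 0.44) and -0.01 (adjusted p = 0.92). The alpha-9 chain (Itga9), a receptor for tenascin and osteopontin, was well above background in RKPG9 alone, where it read 0.63, 0.63 and 0.67. There it was at least 1.55-fold higher than in EB5, 1.38-fold higher than in HP3 and 1.52-fold higher than in HP4 (adjusted p = 3.0e-06, 1.5e-05 and 1.0e-06). Each bound sets the mean Cy3 signal of RKPG9 against the lowest signal called well above background in the dim line, or the probe's own where higher, and is open to dye bias since no dyes were swapped. The measured differences were 0.73 for RKPG9 against EB5, -0.62 for HP3 against RKPG9 and -0.83 for HP4 against RKPG9. Of the 17 integrin probes, 0 were higher and 5 lower in HP3 than in EB5, and the same counts held for HP3 against RKPG9. In HP4, 2 were higher and 6 lower than in EB5, and 2 and 5 than in RKPG9. Over all probes, 11.4% were higher and 19.1% lower in HP3 than in EB5, and 12.6% and 10.1% than in RKPG9. For HP4 the shares were 18.4% and 26.4% against EB5, and 20.9% and 19.1% against RKPG9. The chains alpha-2, alpha-4 and alpha-6 did not pass in HP3 against EB5.

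Of the 14 interstitial collagen probes, 0 were higher and 6 lower in HP3 than in EB5, and 0 and 8 in RKPG9, and the others did not pass. Among all probes, 11.4% were higher and 19.1% lower in HP3, and 12.5% and 21.6% in RKPG9. Col1a2, a chain of type I collagen, the main collagen of bone and skin, read -2.63 and -2.44 on the 2 usable EB5 arrays, -2.94, -2.91 and -3.00 on RKPG9 and -2.79, -2.89 and -2.82 on HP3 at probe A_65_P06897. The differences were -0.30 (SE 0.07, adjusted p = 0.0074) in HP3 and -0.42 (SE 0.07, adjusted p = 7.4e-04) in RKPG9, with -0.30 and -0.25 at A_65_P15178, whose description is less certain. From Cy3 alone the first probe gave 0.04 and 0.07. HP4 had 4 higher and 3 lower than EB5 (18.4% and 26.4% of all probes), and 8 higher and 0 lower than RKPG9 (20.9% and 19.1%). Col8a1, a short-chain collagen of vessel walls and the cornea, was highest in HP4, at -1.96, -2.36 and -2.18, against -2.45, -2.47 and -2.79 on EB5 arrays, -2.92, -2.96 and -2.97 on RKPG9 and -2.48, -2.88 and -2.73 on HP3. HP4 exceeded EB5 by 0.41, RKPG9 by 0.78 and HP3 by 0.53. Before normalization, the Col8a1 Cy3 signal net of local background was not higher in HP4 than in EB5. It was 92.6 to 99.7 on EB5 arrays, 71.1 to 89.7 on RKPG9, 62.6 to 93.2 on HP3 and 64.4 to 71 on HP4.

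Lox, which starts the crosslinking of collagen and elastin, was likewise highest in HP4. It read -3.59 and -3.63 on the 2 usable arrays of EB5, -3.97, -3.90 and -3.97 on RKPG9, -3.64, -3.89 and -3.45 on HP3 and -3.11, -3.41 and -3.33 on HP4 at probe A_65_P02346. The HP4 difference was 0.32 (SE 0.11, adjusted p = 0.038) from EB5, 0.66 (SE 0.10, adjusted p = 4.3e-04) from RKPG9 and 0.37 (SE 0.10, adjusted p = 0.019) from HP3. Its direction did not hold across settings: with the Cy3 channel alone these were -0.10, -0.12 and -0.16, and HP4 against EB5 was -0.29 with the processed signals. No fold is given for the other Lox probe in HP4 against HP3, because it was not well above background on any HP4 array. Of the 5 lysyl oxidase probes, 0 were higher or lower in HP3 than in EB5 (limma), and 3 were higher in HP4 than in EB5. The share of all probes that were higher in HP4 was 18.4%. At an unadjusted p under 0.05, 1 of the 5 lysyl oxidase probes differed in HP3.

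Thrombospondin-1 (Thbs1), a secreted glycoprotein that binds integrins and activates TGF-beta, had the largest difference among the members at probe A_65_P06491. It read -3.35, -3.25 and -3.23 on RKPG9, -3.04, -3.37 and -3.08 on HP3 and -2.94 and -2.88 on the 2 usable HP4 arrays. In EB5 only replicate 1 was usable, at -1.15, since the spots of replicates 2 and 3 were marked as outliers. With outlier spots kept, the EB5 arrays read -1.14, -1.12 and -1.24. The difference from EB5 was -2.02 (SE 0.12, adjusted p = 5.4e-06) in HP3, -1.77 (SE 0.12, adjusted p = 1.3e-05) in HP4 and -2.13 (SE 0.12, adjusted p = 2.0e-06) in RKPG9, each resting on 1 EB5 array. Without that array nothing could be fitted at this probe. Without background subtraction the differences were -0.80, -0.54 and -1.08. A further Thbs1 probe, A_65_P13588, fell by far less, with -0.14 (adjusted p = 0.0077), -0.12 (adjusted p = 0.012) and -0.10 (adjusted p = 0.034).

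Osteopontin (Spp1), a phosphoprotein of bone that binds alpha-v and alpha-9 integrins, was highest in RKPG9. It read -3.12, -3.05 and -3.17 on EB5 arrays, -2.73, -2.77 and -2.77 on RKPG9, -2.98, -3.04 and -3.01 on HP3 and -3.20, -3.23 and -3.20 on HP4. RKPG9 lay apart from all others, at 0.36 (SE 0.04, adjusted p = 1.4e-05) from EB5, and HP3 and HP4 differed from it by -0.25 and -0.45. Its reference signal was saturated on all 12 arrays, so the distance from the reference is understated. HP3 against EB5 was 0.10 (adjusted p = 0.049) and was lost in 11 of the 12 fits that left out an array. Bgn read -4.17 and -4.22 on 2 usable arrays of EB5, -4.54 and -4.57 on 2 of RKPG9, -4.52, -4.23 and -4.49 on HP3 and -4.00, -3.95 and -4.09 on HP4. It was lower in RKPG9 than in EB5, at -0.36 (adjusted p = 0.011), and higher in HP4 than in RKPG9 by 0.54 and than in HP3 by 0.39. With the Cy3 channel alone these 3 values were 0.31, -0.32 and -0.14. Tenascin-C (Tnc), an anti-adhesive glycoprotein of embryonic and wound matrix, was well above background in EB5 alone at probe A_65_P14193, at least 1.03-fold higher than in HP3 and 1.13-fold higher than in RKPG9 (measured differences -0.43 and -0.42). HP4 was not below EB5 there: its arrays read -1.38, -1.69 and -1.59, overlapping -1.58, -1.50 and -1.59 in EB5, and no fold is given. The Tnc probes A_65_P06656 and A_65_P15387 did not pass in any line against EB5, with differences of -0.08 and -0.12 in HP3, -0.14 and -0.08 in HP4, and -0.06 and 0.00018 (adjusted p = 1) in RKPG9. Of the 13 probes of matrix glycoproteins and elastic fibers, 1 was higher and 4 lower in HP3 than in EB5, 0 and 4 in HP4, and 1 and 5 in RKPG9. All probes gave 11.4% and 19.1%, 18.4% and 26.4%, and 12.5% and 21.6% in these lines.

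Of the 9 matrix metalloproteinase probes, 1 was higher and 3 lower in HP3 than in EB5, 1 and 3 in HP4, and 0 and 4 in RKPG9. Over all probes the shares were 11.4% and 19.1% in HP3, 18.4% and 26.4% in HP4, and 12.5% and 21.6% in RKPG9. Mmp14, a membrane-bound collagenase that activates Mmp2, read -1.66, -1.71 and -1.60 on EB5 arrays, -2.06, -1.99 and -2.00 on RKPG9, -2.22, -2.25 and -2.20 on HP3 and -2.05, -2.01 and -2.01 on HP4. All EB5 arrays lay above all others, and HP3 was lowest. The difference from EB5 was -0.57 (SE 0.04, adjusted p = 6.5e-07) in HP3, -0.37 (SE 0.04, adjusted p = 1.3e-05) in HP4 and -0.36 (SE 0.04, adjusted p = 1.2e-05) in RKPG9, and HP3 against RKPG9 gave -0.21. HP4 against RKPG9 was -0.01 (adjusted p = 0.86). RKPG9 against EB5 turned, with Cy3 alone, to 0.13. Gelatinase B (Mmp9) had probes that disagreed: A_65_P06675 was higher in HP4 than in EB5, RKPG9 and HP3 by 0.37, 0.48 and 0.32, while A_65_P17997 was -0.17 in HP4 against EB5, with -0.23 in HP3 and -0.25 in RKPG9. Mmp11, or stromelysin-3, was higher in HP3 than in RKPG9 by 0.36 and than in EB5 by 0.13. Mmp15, another membrane-bound enzyme, was not well above background on any HP4 array and differed there from EB5 by a measured -0.40 (adjusted p = 0.0036), with no lower bound given because the value from Cy3 signals exceeded the measured fold. With median centring this difference was 0.36.

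The Adam proteins are membrane proteases that shed growth factors and receptors. Of their 8 probes, 1 was higher and 3 lower in HP3 than in EB5, 2 and 3 in HP4, and 2 and 3 in RKPG9. All probes gave 11.4% and 19.1%, 18.4% and 26.4%, and 12.5% and 21.6% in these lines. The higher Adam probe in HP3, and 1 of the 2 in HP4 and in RKPG9, was Adam24. It was not well above background on any array and is given no fold. Adam15 read -0.62, -0.62 and -0.59 on EB5 arrays, -0.82, -0.84 and -0.79 on RKPG9, -0.89, -0.94 and -0.90 on HP3 and -0.92, -1.05 and -1.08 on HP4. Every EB5 array was above every other array, with differences of -0.30 in HP3, -0.41 in HP4 and -0.21 in RKPG9. Adam9, which was chosen after its values were seen, stood at -1.03, -0.95 and -1.0 on EB5 arrays, -0.82, -0.88 and -0.88 on RKPG9, -1.32, -1.34 and -1.29 on HP3 and -1.20, -1.12 and -1.32 on HP4. HP3 gave -0.32 against EB5 and -0.46 against RKPG9, and HP4 gave -0.22 and -0.35, of which the HP4 values without background subtraction became 0.06 and 0.02. Adam23, a brain adhesion protein with no protease activity, was highest in RKPG9, which exceeded EB5 by 0.38, and HP4 differed from RKPG9 by -0.53 and from HP3 by -0.28. Adam17, the enzyme that sheds TNF-alpha, rose by 0.34 in HP4 against EB5 at probe A_65_P16161, while A_65_P20688, whose description is less certain, gave -0.04 (adjusted p = 0.45).

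Of the secreted Adamts enzymes, which cut proteoglycans, Adamts1 was highest in HP4. It read -1.28, -1.38 and -1.59 on EB5 arrays, -1.39, -1.50 and -1.52 on RKPG9, -1.50, -1.45 and -1.61 on HP3 and -1.03, -1.02 and -1.07 on HP4. No HP4 array overlapped another line, and the differences were 0.38 (SE 0.07, adjusted p = 0.0013) from EB5, 0.43 (SE 0.07, adjusted p = 5.1e-04) from RKPG9 and 0.48 (SE 0.07, adjusted p = 6.7e-04) from HP3. Before normalization, the Adamts1 Cy3 signal net of local background was not higher in HP4 than in EB5. It was 59.8 to 60.6 on EB5 arrays, 54.3 to 59.8 on RKPG9, 51.5 to 63.3 on HP3 and 55.9 to 58.9 on HP4. The aggrecanase Adamts5 was well above background on 1 EB5 array and on no array of the other lines. The measured difference of RKPG9 from EB5 was -0.62. The bound, at least 1.15-fold, rests largely on EB5 arrays that were not well above background. No fold is given for HP4. Timp2, an inhibitor that also takes part in the activation of Mmp2, was lower in HP3 and RKPG9 than in EB5 at most of its probes. Probe A_65_P12392 read -2.10, -2.02 and -2.32 on EB5 arrays, -2.57, -2.57 and -2.62 on RKPG9 and -2.63, -2.75 and -2.68 on HP3, with differences of -0.54 in HP3 and -0.44 in RKPG9. Probe A_65_P09092 gave -0.24 and -0.29, and A_65_P06139 gave -0.13 (adjusted p = 0.14) and -0.27 (adjusted p = 0.0055). Probe A_65_P09092 turned, with Cy3 alone, to 0.26 and 0.16. Of the 7 Timp probes, 0 were higher and 3 lower than in EB5 in both HP3 and RKPG9. None passed in HP4 by limma (1 at an unadjusted p under 0.05), whereas 4 were higher and 0 lower in HP4 than in RKPG9. The shares of all probes against EB5 were 11.4% and 19.1% in HP3, 12.5% and 21.6% in RKPG9 and 18.4% and 26.4% in HP4. For HP4 against RKPG9 they were 20.9% and 19.1%.

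**Figure D5:**
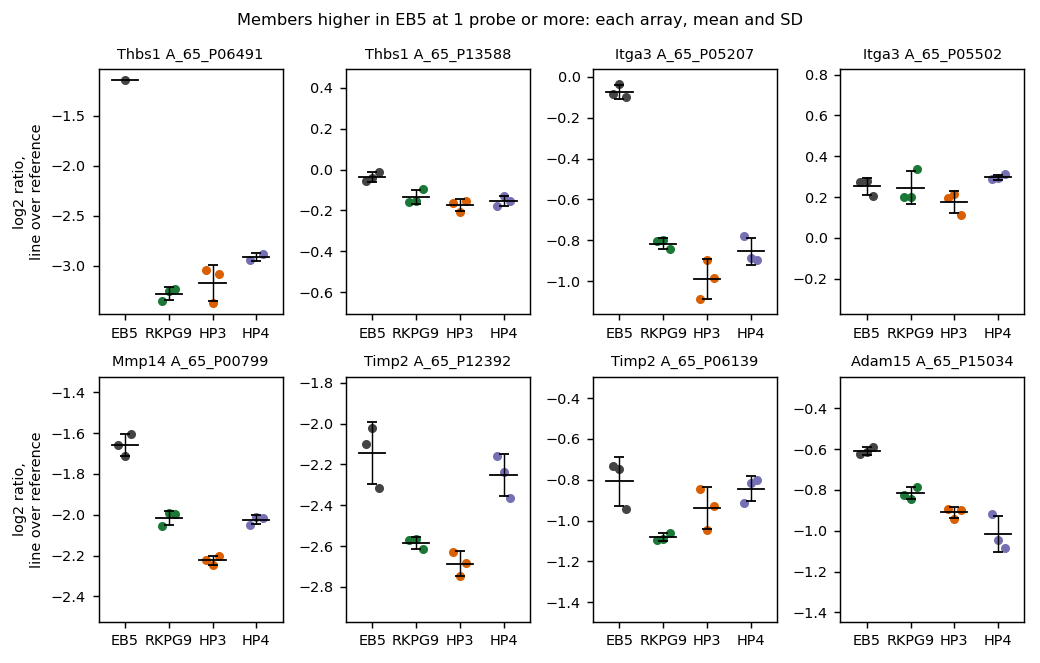
Log2 ratio of line over reference for 8 probes of matrix, receptor and protease genes that were higher in EB5 at 1 or more of their probes, with 1 point per array, the line mean and bars of 1 SD. The probe pairs of Thbs1 and of Itga3 differ in the size of the gap between EB5 and the other lines, and EB5 has 1 usable array at Thbs1 A_65_P06491.

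Genes that make, modify or sense the matrix outside the member names were counted from lists. For comparison, 11.4% of all probes were higher and 19.1% lower in HP3 than in EB5, and 18.4% and 26.4% in HP4. The shares were 12.6% and 10.1% in HP3 against RKPG9, and 13.7% and 14.7% in HP4 against HP3. Of 18 measured proteoglycans and associated matrix proteins, 0 were higher and 10 lower in HP3 than in EB5 (median -0.23), and 7 and 2 in HP3 against RKPG9. HP4 had 3 higher and 6 lower than EB5 (median -0.04), and 8 higher and 1 lower than HP3. Dystroglycan (Dag1), a laminin receptor, fell by 0.45 and decorin (Dcn), a proteoglycan that binds collagen fibrils, fell by 0.41 in HP3 against EB5. In HP4, Dcn gave -0.03 (adjusted p = 0.88) against EB5 and 0.38 against HP3, the latter -0.22 with the processed signals. Against RKPG9, fibromodulin (Fmod) rose by 0.58 and the proteoglycan syndecan-2 (Sdc2) by 0.33, while Ctgf, a matricellular growth factor, gave -0.42 and versican (Cspg2) -0.14. Of 9 measured genes of collagen synthesis, 0 were higher and 4 lower in HP3 than in EB5 (median -0.15), and 2 and 4 in HP4 (median 0.0059). The collagen chaperone Serpinh1 differed from EB5 by -0.75 in HP3, -0.54 in HP4 and -1.0 in RKPG9, and the procollagen processing enhancer Pcolce by -0.52 in HP3 and -0.40 in HP4, with -0.54 in HP3 against RKPG9. The collagen hydroxylases gave 0.23 for Plod2 and -0.21 for Lepre1 in HP3 against RKPG9, where 1 gene of the list was higher and 3 lower.

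Of 9 measured focal adhesion genes, 0 were higher and 8 lower in HP3 than in EB5 (median -0.39), with 0 and 7 in HP4 and 0 and 8 in RKPG9. All probes gave 11.4% and 19.1%, 18.4% and 26.4%, and 12.5% and 21.6% in these lines. Tgfb1i1 (Hic-5), an adaptor at adhesions, differed by -0.57 in HP3, and integrin-linked kinase (Ilk) by -0.55. Within the shared session 2 were higher and 0 lower in HP3 than in RKPG9, with 0.28 for zyxin (Zyx) and 0.16 for the docking protein Bcar1. Of 6 genes of pericellular proteolysis, 2 were higher and 3 lower in HP3 than in EB5, and 0 and 4 in HP4. The urokinase receptor Plaur gave -0.54 in HP3, and the lysosomal proteases cathepsin B (Ctsb) and cathepsin L (Ctsl) gave -0.31 and 0.33. Serpine2, an inhibitor of urokinase and thrombin, gave 0.17. In HP4 the differences from EB5 were -0.01 (adjusted p = 0.93) for Ctsl and -0.16 for Serpine2, which was 0.09 with the processed signals, and HP4 against HP3 gave -0.34 and -0.33. Against RKPG9, where 1 was higher and 2 lower, Serpine2 gave 0.24 and Ctsb -0.25.

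Markers of other cell types moved along with some of these differences. Of 15 listed mesenchymal and contractile genes, many of which are also expressed in other cells, 8 were measured, and all 8 were well above background in every line. The mean level over the 7 usable on all 12 arrays was -1.68 to -1.54 on the EB5 arrays, -2.46 to -2.42 on RKPG9, -2.24 to -2.12 on HP3 and -1.99 to -1.85 on HP4. None was higher and 7 were lower in HP3 than in EB5, 0 and 6 in RKPG9, 1 and 7 in HP4, and 7 were higher and 0 lower in HP4 than in RKPG9. Over all probes the shares were 11.4% and 19.1%, 12.5% and 21.6%, 18.4% and 26.4%, and 20.9% and 19.1%, in that order. The intermediate filament gene Vim gave -1.03 in HP3 against EB5 and 0.47 in HP3 against RKPG9. The part of these markers in the results on interstitial collagens was not tested. In bulk RNA, fewer cells of a type and less RNA per cell cannot be told apart.

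Of 15 listed extraembryonic endoderm genes, which mark a lineage that makes much laminin and collagen IV, 11 were measured, with a mean level of -0.57 to -0.53 in EB5, -0.58 to -0.55 in RKPG9, -0.66 to -0.56 in HP3 and -0.47 to -0.38 in HP4. None was higher and 2 were lower in HP3 than in EB5, and 1 was higher and 1 lower in HP3 than in RKPG9. In HP4, 6 were higher and 2 lower than in RKPG9. Between 1 and 3 of the 11 were well above background on no array of a line. Against EB5, RKPG9 had 1 of the 11 higher and 2 lower (median -0.04), and the others did not pass. The endoderm factor Foxa2, 1 gene of this list, was 0.73 in RKPG9 against EB5, -0.93 in HP3 against RKPG9 and -0.85 in HP4 against RKPG9. Of 12 listed trophoblast genes 6 were measured, of which 5 were usable on all 12 arrays, with a mean level of -0.57 to -0.51 in EB5, -1.11 to -1.05 in RKPG9, -1.22 to -1.16 in HP3 and -0.95 to -0.87 in HP4. In each of HP3, HP4 and RKPG9, 0 of the 6 were higher and 3 lower than in EB5. Of 11 listed ES cell genes 5 were measured and 3 were usable on all 12 arrays, with a mean level of 0.87 to 0.89 in EB5, 0.75 to 0.78 in RKPG9, 0.87 to 0.94 in HP3 and 0.70 to 0.76 in HP4. HP4 had 1 of the 5 higher and 3 lower than RKPG9, and 0 and 3 than HP3, whereas HP3 had 2 and 0 than RKPG9. The ES cell factors Klf4, Esrrb and Pou5f1 gave -0.34, -0.67 and -0.31 in HP4 against RKPG9 and -0.54, -0.55 and -0.31 against HP3, of which Pou5f1 against RKPG9 was 0.02 with Cy3 alone. Among all probes, 11.4% were higher and 19.1% lower in HP3 than in EB5, 18.4% and 26.4% in HP4, and 12.5% and 21.6% in RKPG9. Against RKPG9 the shares were 12.6% and 10.1% in HP3 and 20.9% and 19.1% in HP4. They were 13.7% and 14.7% in HP4 against HP3. The part of these marker genes in the matrix results was not tested.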

How the data were processed

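The authors deposited 1 scanner output file per array, written by Agilent Feature Extraction 7.5.1, with the intensity of each spot in both dyes, and a table of log10 ratios made from the processed signals, in which 93.8% to 95.9% of values matched the scanner's log10 ratio with its sign turned (Cy3 over Cy5) plus a constant per probe within 0.01. Its column medians were 2.87 to 2.88, and how the probes were shifted stays unknown. From the deposited mean intensity and median local background, signals were corrected with normexp (offset 50) and normalized by loess within arrays in limma 3.58.1 (R 4.3.3), with control and outlier spots given no weight. Outlier spots were left out, saturated spots kept, and every gene probe (20280) was tested.

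A linear model with 1 mean per line was fitted to all 12 arrays (8 residual and 3.42 prior degrees of freedom), 6 comparisons were made, and p-values were adjusted by Benjamini-Hochberg over all probes. The thresholds were an adjusted p under 0.05 and, where stated, a change over 2-fold, tested two-sided. Probes of 1 gene were kept apart, and the brightest stood for a gene in the lists. Simulated arrays of HP3 against EB5 had independent normal noise around each probe's mean, with 50 probes changed by each size. Of these, 34, 46, 50 and 50 were called at log2 changes of 0.3, 0.5, 1.2 and 2, and 13 of 20035 unchanged probes were called. The simulation held no effect of reading session, clone or dye, so its count of false calls does not carry over to the real comparisons. The number of arrays, 3 per line, limits the precision.

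Members and lists were chosen with earlier results of these data known. The rule for named genes took member probes past both thresholds, the 6 largest changes each way in HP3 and HP4 against EB5 and the 3 largest each way in the other comparisons among probes whose arrays did not overlap, and textbook genes of each role. Roles, the promoters shown and which comparisons to print for the textbook genes were chosen after the values, and their behavior under other settings, had been seen. Promoter sequences came from RefSeq on GRCm38.p6, with motifs searched by exact match. Figures used matplotlib 3.10.9.

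Alternatives were the scanner's processed signals, no background subtraction, median centring, the Cy3 channel alone (quantile normalized), the deposited table, outlier spots kept, probes well above background on at least 3 arrays, a block for the replicate number, and fits without each single array.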

Additional observations from a re-analysis of the deposited data

Results flagged for a closer look

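HP3 and HP4 carry the same genotype. Over all members, 32 probes were higher and 10 lower in HP4 than in HP3, against 13.7% and 14.7% of all probes (limma). The 10 probes listed here were named by their result in this same test or after their values were seen. That they differ is therefore not a separate result. HP4 was lower than HP3 at Nid2 A_65_P18553 by a log2 difference of -0.51 (0.13 in HP3 and -0.38 in HP4 against EB5), at Lama1 by -0.46 (0.47 and 0.01), at Adam23 by -0.28 (0.13 and -0.15) and at Nid2 A_65_P07859 by -0.23 (-0.05 and -0.27). HP4 was higher at Col4a1 by 0.30 (-0.48 in HP3 and -0.18 in HP4 against EB5), at Mmp9 A_65_P06675 by 0.32 (0.05 and 0.37) and at Lox A_65_P02346 by 0.37 (-0.05 and 0.32). It was also higher at Bgn by 0.39 (-0.22 and 0.18), at Adamts1 by 0.48 (-0.10 and 0.38) and at Col8a1 by 0.53 (-0.12 and 0.41). The adjusted p of these 10 differences lay between 0.000291 and 0.0193 (limma). The direction reversed with the Cy3 channel alone for Col4a1, Lox and Bgn, and with median centring for Adam23 and Bgn. Each line is 1 clone, so Rex1 genotype and clone cannot be told apart in comparisons between lines of different genotype.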

How the results depend on the processing

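Over all members that passed the test, 8 of 37 in HP3 against EB5 kept direction and threshold under every alternative and 10 reversed under at least 1. These counts were 5 and 18 of 45 in HP4 against EB5, 13 and 9 of 43 in RKPG9 against EB5, 6 and 0 of 24 in HP3 against RKPG9, 8 and 26 of 52 in HP4 against RKPG9, and 2 and 21 of 42 in HP4 against HP3. The values printed in the text are a choice made after seeing these alternatives. Of them, 21 of 45, 5 of 31, 15 of 31, 14 of 36, 9 of 28 and 4 of 18 were kept under every alternative in the same order of comparisons, and 6, 11, 4, 1, 10 and 6 reversed under at least 1. Reversals arose under changes of background, centring, dye channel or source of values, and at Mmp23 in RKPG9 against EB5 with outlier spots kept. None arose by leaving out an array, and the cause was not tested. Pairs in which the brighter line was not well above background were given no fold and are not among these printed values, but their probes are in the counts over all members.

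With the Cy3 channel alone, HP3 against EB5 reversed to 0.039 for Col1a2 A_65_P06897, 0.038 for Lamb2 and 0.26 for Timp2 A_65_P09092, and RKPG9 against EB5 to 0.31 for Bgn, 0.075 for Col1a2, 0.13 for Mmp14 and 0.16 for Timp2. HP4 reversed to -0.10 for Lox and 0.18 for Nid2 A_65_P18553 against EB5, to -0.32 for Bgn, -0.12 for Lox and -0.0029 for SPARC against RKPG9, and to -0.14 for Bgn, -0.074 for Col4a1, -0.16 for Lox, -0.27 for Dcn and 0.056 for Serpine2 against HP3. Further values with Cy3 alone were 0.36 for Serpine2 in HP4 against EB5, and 0.19 for Nid2 A_65_P18553 and 0.015 for Pou5f1 in HP4 against RKPG9. With the processed signals and the authors' table, HP4 gave 0.090 for Serpine2 against EB5 and -0.22 for Dcn against HP3. Lox in HP4 against EB5 was -0.29 with the processed signals and -0.40 in the authors' table. Median centring gave, in HP3 against EB5, -0.025 for Col18a1 A_65_P14425, -0.038 for Mmp11 and -0.083 for Spp1. In HP4 against EB5 it gave -0.023 for Adam17 A_65_P16161, -0.16 for Lox, 0.36 for Mmp15, 0.57 for Tnc A_65_P06656 and 0.20 for Tnc A_65_P15387, with 0.14 for Adam23 and -0.029 for Bgn against HP3 and -0.37 for SPARC against RKPG9, and in HP3 against RKPG9 -0.028 for fibronectin A_65_P16612. Without background subtraction, HP4 gave 0.060 for Adam9, 0.14 for Col4a1, 0.14 for Ctsl and 0.44 for Dcn against EB5, and 0.024 for Adam9, 0.24 for Col4a1, 0.020 for Col4a2, 0.0061 for Lamb2 and 0.29 for Mmp14 against RKPG9.

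Counts of members that moved by more than 1.5 times were as follows, with the share of all probes in brackets. In HP3 against EB5 they were 3 higher with median centring (9.69%) and 16 lower with Cy3 alone (15.5%). In HP4 against EB5 they were 31 higher and 12 lower without background subtraction (16.8% and 20.6%), and 35 and 48 with median centring (36.5% and 43%). There were 47 lower with the processed signals (33.7%) and 46 lower in the table (32.5%). In RKPG9 against EB5 Cy3 alone gave 13 and 16 (10.6% and 15.6%). In HP3 against RKPG9 they were 2 higher with median centring (5.87%), and 5 higher and 8 lower with Cy3 alone (5.5% and 4.75%). In HP4 against RKPG9 the processed signals and the table each gave 18 higher and 31 lower (20.1% and 26.7%, and 19.7% and 26%). There were 11 higher with Cy3 alone (13.9%), 11 lower without background subtraction (20.8%) and 29 lower with median centring (37.9%). In HP4 against HP3 they were 13 higher with the processed signals (12.7%) and in the table (12.4%), and 3 and 2 with Cy3 alone (4.64% and 4.71%). Median centring gave 27 lower there (36.4%). Lower members past 2-fold, under the processed signals and the table, numbered 5 and 3 in HP3 against EB5, 12 and 11 in HP4 against EB5, 6 and 4 in RKPG9 against EB5, 4 and 5 in HP4 against RKPG9 and 2 and 3 in HP4 against HP3, with 1 in HP3 against RKPG9 with the processed signals. Higher members past 2-fold numbered 1 in HP3 and HP4 against EB5 and in HP4 against RKPG9, and 2 in RKPG9 against EB5 under both, with 1 in HP3 against RKPG9 in the table. Without background subtraction 0 were lower past 2-fold in HP3 and HP4 against EB5. Median centring gave 2 and 4 there and 2 in HP4 against RKPG9, and Cy3 alone gave 2 in each of the 3 comparisons with EB5. Shares of all probes past 2-fold are not available for these alternative settings.

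Leaving out 1 array in turn gave 3 to 6 higher and 27 to 34 lower members in HP3 against EB5, 11 to 19 and 23 to 27 in HP4 against EB5, 8 to 9 and 27 to 36 in RKPG9 against EB5, 5 to 10 and 12 to 16 in HP3 against RKPG9, 31 to 37 and 14 to 17 in HP4 against RKPG9, and 20 to 32 and 6 to 11 in HP4 against HP3. The shares of all probes in these fits were 8.77% to 12.6% higher and 15.6% to 20.6% lower in HP3 against EB5. They were 14.7% to 18.2% and 22.5% to 26.1% in HP4 against EB5, and 10% to 13.4% and 18% to 22.8% in RKPG9 against EB5. Against RKPG9 they were 9.93% to 13.8% and 8.13% to 10.7% in HP3, and 17.9% to 20.9% and 16% to 19% in HP4. HP4 against HP3 gave 10% to 13.8% and 10.6% to 14.5%. The lowest member counts came without HP3 replicate 2 (3 higher in HP3 against EB5, 20 higher in HP4 against HP3), EB5 replicate 3 (11 higher in HP4 against EB5), HP3 replicate 3 (5 higher in HP3 against RKPG9), HP4 replicate 1 (21 higher in HP4 against HP3) and HP3 replicate 1 (6 lower in HP4 against HP3). Past 2-fold, 0 to 1 members were lower in each comparison with EB5, 0 without EB5 replicate 1, and 0 elsewhere.

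The replicate numbers did not pair the arrays: deviations of same-numbered arrays correlated between -0.177 and 0.202, over 0.1 in 4 of 18 pairs. With the replicate number as a block, higher and lower members were 5 and 33 in HP3 against EB5, 19 and 25 in HP4 against EB5, 8 and 35 in RKPG9 against EB5, 9 and 15 in HP3 against RKPG9, 41 and 17 in HP4 against RKPG9 and 32 and 10 in HP4 against HP3. The shares of all probes, in the same order, were 11.4% and 18.8%, 18.5% and 26.4%, and 12.5% and 21.5% against EB5. They were 12.7% and 10%, and 20.8% and 19.1%, against RKPG9, and 13.7% and 14.7% in HP4 against HP3. Of the values printed, 2 lost their call with the block, Spp1 in HP3 against EB5 (adjusted p = 0.063) among them, and none reversed.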
